A study of Mus musculus with 9 samples.

Results

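The genes described here serve amino acid uptake, serine synthesis, one-carbon metabolism and the loading of tRNAs with amino acids. Their 35 symbols were listed by name, with earlier results of these data known. Of these, 34 had a row among the 25759 gene rows of the expression table. All 34 passed the filter on low values. Slc7a5 was not analysed here. The 34 measured members were 6 amino acid transporters, 8 enzymes of serine synthesis and one-carbon metabolism, asparagine synthetase (Asns) with the transcription factor Atf4, and 18 cytosolic tRNA synthetases.

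Gene expression had been measured by RNA sequencing in mouse CD4+ T cells of 3 groups with 3 libraries each. Naive wild-type (WT) cells, labelled CD4+CD44-CD62+Foxp3GFP-, were sorted without culture from lymph node and spleen. For activated WT cells and for activated cells of the genotype BMPR1a/CD4cre, unsorted lymph node and spleen cells were stimulated in culture with the T cell mitogen ConA (2 ug/ml) plus LPS (10 ng/ml) over 3 days, and CD4+CD44+CD62-Foxp3GFP- cells were then sorted. All mice were C57BL/6, were 8 to 12 weeks old and carried a Foxp3GFP reporter transgene, which marks regulatory T cells and was used to leave them out. BMPR1a is a receptor for bone morphogenetic proteins, and Cre driven by Cd4 acts in developing T cells, so that the receptor gene is targeted in T cells generally; these cells are called the knockout here. The culture also held the other cells of the organs, which in the knockout culture are labelled with the same genotype. The labels do not say that the libraries of a group came from separate mice or cultures, so each p-value measures the spread among those libraries and nothing more, and that spread may be technical.

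A resting T cell is small and makes little protein, and an activated one grows and divides, for which it takes up amino acids through membrane transporters. Serine, taken up or made from a glycolytic intermediate, donates a carbon unit to folate, and the folate enzymes of cytosol and mitochondria pass these units on to purines, thymidylate and methionine. Each amino acid is joined to its tRNA by its own aminoacyl-tRNA synthetase, and a lack of loaded tRNA is a signal that raises translation of Atf4, a transcription factor that acts on genes for amino acid synthesis, transport and tRNA loading.

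Expression is given in FPKM, a read-fragment number scaled to transcript length and to the mapped fragments of the library, so levels can be compared between genes per length. Genes were tested with limma on log2(FPKM + 1), and a gene was called at a Benjamini-Hochberg adjusted p under 0.05 over the 15126 genes tested. The read depth behind the libraries is unknown, and between 12922 and 13395 genes per library reached 1 FPKM. The targeted gene Bmpr1a was read at 0.957, 1.93 and 1.20 FPKM in the knockout and at 2.16, 2.92 and 1.40 FPKM in activated WT libraries (log2 fold change -0.41, limma adjusted p = 0.261), so its gene-level value does not settle the genotype label. Summed FPKM of 8 T cell markers overlapped between the groups, at 2557 to 2663 in naive, 2662 to 2852 in activated WT and 2448 to 2670 in knockout libraries. The 8 granulocyte markers summed to 55.0 to 660.6 FPKM in naive and at most 1.31 in activated libraries, and the 6 erythroid markers to 63.6 to 84.2 and at most 1.72. The 2 CD8 markers ran the other way, at 9.48 to 41.4 FPKM in naive, 146.9 to 230.4 in activated WT and 219.6 to 279 in knockout libraries. The 6 B cell markers summed to 3.13 to 182.9, 140.2 to 177.3 and 129.9 to 196.4 FPKM. The 9 macrophage markers summed to 25.6 to 204.4 FPKM in naive and at most 19.2 in activated libraries, the 6 NK cell markers to 11.1 to 64.6 and at most 6.73, and the 6 dendritic cell markers to 1.35 to 7.98, 3.60 to 6.16 and 5.74 to 16.2. S100a8 and S100a9 of neutrophils did not exceed 0.777 FPKM in an activated library, and 2 such libraries listed each at 0. No marker of these other cell types was called between knockout and activated WT cells. The part of these other cells in the results below was not tested. In bulk samples, fewer cells of a type and less RNA per cell cannot be told apart.

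In activated WT cells the serine synthesis enzymes Phgdh, Psat1 and Psph, the mitochondrial one-carbon enzymes Mthfd2 and Mthfd1l, Asns, the carrier Slc38a1 and 8 of 18 synthetases were higher than in naive WT cells. Atf4, the cytosolic one-carbon enzyme Mthfd1 and 3 of the 6 transporters were lower. Of the 34 members, 15 were called higher and 5 lower, or 44.1% and 14.7%, where 26.2% of all tested genes were called higher and 25.8% lower. The median log2 fold change of the members was 0.14 and that of all tested genes -0.01. The 2 groups' libraries were fully separated for 16 members that were higher and 8 that were lower in activated cells, and over all tested genes that held for 29.6% and 29.8%. The groups also differed in 5 proliferation markers, all called higher on activation, which summed to 6.68 to 10.3 FPKM in naive, 327 to 621.5 in activated WT and 554.8 to 666.1 in knockout libraries, and their part in the members' results was not tested.

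Among the 6 transporters, 1 rose and 3 fell on activation. Slc38a1 (ENSMUSG00000023169, chromosome 15, minus strand, 96571418 to 96642913 in GRCm38), a sodium-coupled carrier of glutamine and other neutral amino acids, had naive values of 22.2, 22.2 and 20.4 FPKM and activated WT values of 29.0, 26.5 and 29.2. All activated libraries lay above all naive ones (log2 fold change 0.37, limma adjusted p = 0.00151, SE 0.0607). Its paralogue Slc38a2 went the other way, from 44.3, 53.2 and 39.8 FPKM to 37.1, 36.2 and 34.6 (log2 fold change -0.33 with SE 0.108, limma adjusted p = 0.033). The groups did not overlap for Slc38a2 either.

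Slc7a1 (ENSMUSG00000041313, chromosome 5, minus strand, 148327410 to 148399904), the main carrier of arginine and lysine in many cells, fell from 12.7, 11.9 and 10.3 FPKM to 7.74, 6.72 and 7.33. This was the lowest log2 fold change of any member, at -0.61 (SE 0.130, limma adjusted p = 0.00549). Slc7a6, a light chain that exchanges basic for neutral amino acids, fell from 13.0, 14.5 and 11.6 FPKM to 10.5, 10.6 and 10.8 (log2 fold change -0.26, limma adjusted p = 0.0242). The calls of Slc38a2 and Slc7a6 depended on single libraries. Slc38a2 missed the threshold when any single WT library other than naive replicate 3 was left out, with limma adjusted p of 0.0652 and 0.0722 without naive replicate 1 or 2 and of 0.0614, 0.0746 and 0.087 without activated WT replicate 1, 2 or 3. Its log2 fold change was -0.22 without naive replicate 2. Slc7a6 missed it without naive replicate 1 or 2 (0.0625 and 0.0568) and without activated WT replicate 1 or 2 (0.0652 and 0.0658).

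Both calls were also lost with median-of-ratios scaling, at adjusted p of 0.0778 for Slc38a2 and 0.0665 for Slc7a6. Slc3a2, the heavy chain that carries Slc7a6 and other light chains to the membrane, measured 30.3 ± 2.39 FPKM in naive and 33.2 ± 2.74 in activated WT libraries (SD, n = 3 each; limma adjusted p = 0.428). The glutamine carrier Slc1a5 measured 81.9 ± 3.69 and 84.7 ± 4.58 FPKM (limma adjusted p = 0.631) and was the transporter with the highest level in every group. The summed FPKM of the 6 transporters ran from 193.6 to 215.7 in naive and from 192.6 to 208.1 in activated WT libraries, so the groups overlapped.

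The 3 enzymes that make serine all rose. Phgdh (ENSMUSG00000053398, chromosome 3, minus strand, 98313170 to 98339990), which takes the first step out of glycolysis, was read at 30.6, 32.2 and 34.3 FPKM in naive and 52.0, 38.5 and 45.3 in activated WT libraries (log2 fold change 0.46, SE 0.146, limma adjusted p = 0.0287). Psat1 (ENSMUSG00000024640, chromosome 19, minus strand, 15904678 to 15947337), the transaminase of the pathway, went from 11.9, 12.0 and 12.4 FPKM to 39.2, 32.8 and 26.1 (log2 fold change 1.35, SE 0.168, limma adjusted p = 0.00041). Psph, the phosphatase of the last step, went from 14.8, 12.5 and 14.3 to 23.6, 19.4 and 20.3 FPKM (log2 fold change 0.57, limma adjusted p = 0.0012). For each of these 3 genes the naive and activated libraries were fully separated. For Phgdh alone of the 3 the call depended on single libraries: the adjusted p was 0.0847 and 0.0659 without naive replicate 1 or 2, and 0.0941 and 0.0658 without activated WT replicate 1 or 3.

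Of the folate enzymes, the mitochondrial Mthfd2 and Mthfd1l rose and the cytosolic Mthfd1 fell. Mthfd2, the mitochondrial dehydrogenase and cyclohydrolase, went from 26.3, 24.6 and 26.8 FPKM to 40.8, 35.7 and 36.0 (log2 fold change 0.51, limma adjusted p = 0.00341). Mthfd1l, which releases formate from mitochondria, went from 16.6, 14.0 and 16.9 to 34.7, 36.9 and 18.6 FPKM (log2 fold change 0.83, SE 0.256, limma adjusted p = 0.0267). Its activated libraries were far apart, and without naive replicate 1 or 2 or activated WT replicate 1 or 2 the adjusted p was 0.0557, 0.0776, 0.0877 and 0.0878. Mthfd1 (ENSMUSG00000021048, chromosome 12, plus strand, 76255298 to 76319803), the cytosolic enzyme with 3 activities that uses this formate, fell from 16.1, 15.9 and 16.0 FPKM to 11.1, 10.0 and 11.6 (log2 fold change -0.51, SE 0.119, limma adjusted p = 0.00779). Every activated library lay below every naive one for Mthfd1.

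The hydroxymethyltransferases, which move the carbon unit from serine to folate, did not pass the test. Cytosolic Shmt1 measured 5.83 ± 0.333 FPKM in naive and 8.47 ± 1.01 in activated WT libraries (limma adjusted p = 0.0605), and mitochondrial Shmt2 measured 26.0 ± 1.56 and 29.1 ± 3.00 (limma adjusted p = 0.407). Across the 8 serine and one-carbon enzymes, 5 were called higher and 1 lower (62.5% and 12.5%). Over all tested genes, 26.2% were called higher and 25.8% lower. The median log2 fold change of the 8 enzymes was 0.49, beside -0.01 for all tested genes.

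**Figure D1:**
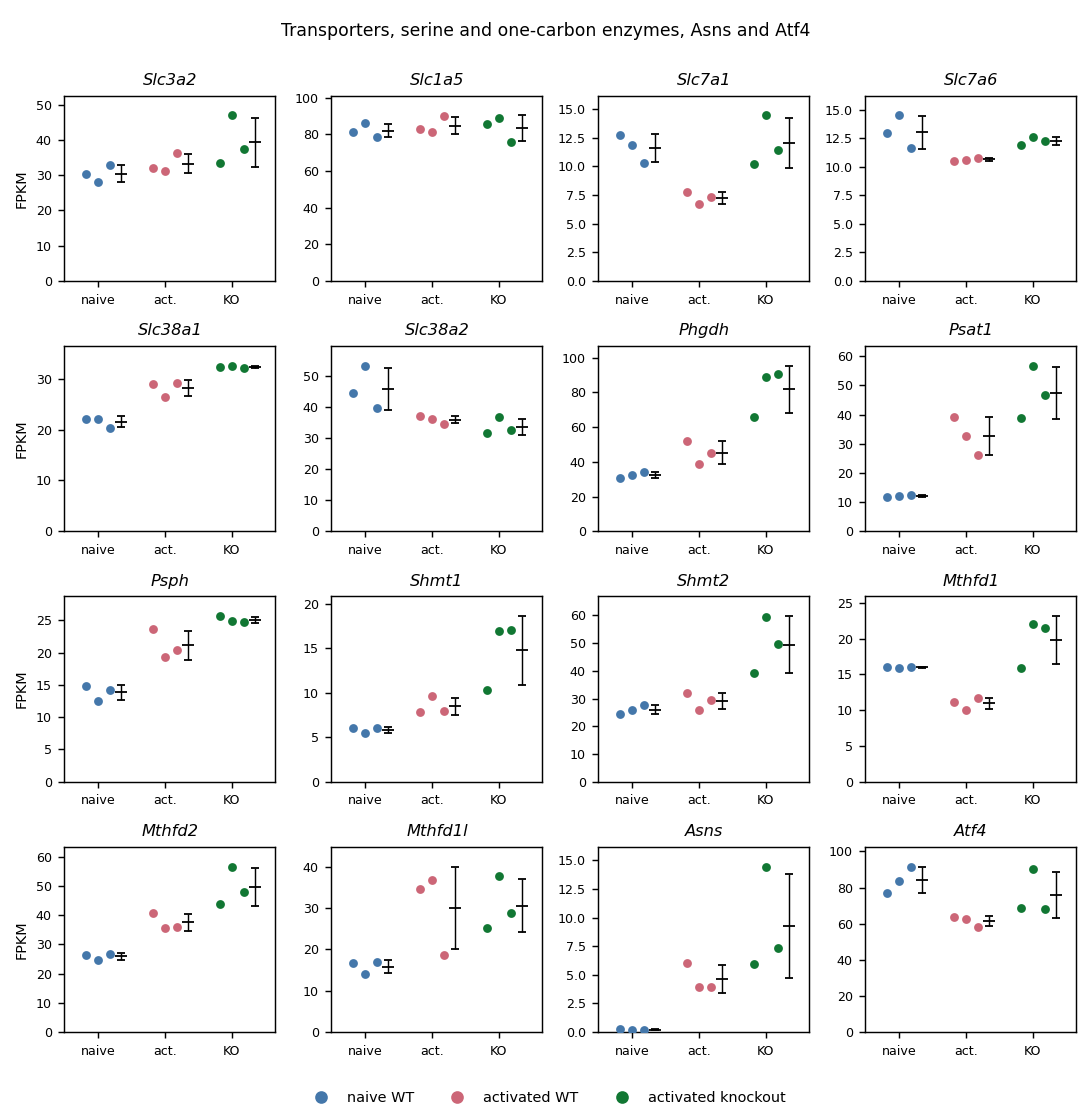
FPKM of the transporters, the serine and one-carbon enzymes, Asns and Atf4, with a panel per gene, a point per library (naive WT, activated WT and activated knockout, 3 each) and the mean ± SD beside them; each vertical axis starts at 0. Asns is at 0.233 FPKM or less in every naive library and at 3.92 FPKM or more in every activated one, while Slc7a1 and Mthfd1 are lowest in the activated WT libraries.

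Asns (ENSMUSG00000029752, chromosome 6, minus strand, 7675169 to 7693254), which makes asparagine from aspartate and glutamine, had the highest log2 fold change of the members. It was read at 0.233, 0.182 and 0.141 FPKM in naive libraries and at 6.05, 3.92 and 3.92 in activated WT libraries. The mean rose from 0.185 ± 0.0458 to 4.63 ± 1.23 FPKM, a ratio of 25.0 (log2 fold change on the FPKM + 1 scale 2.23, SE 0.285, limma adjusted p = 0.000469). Atf4 (ENSMUSG00000042406, chromosome 15, plus strand, 80255184 to 80257541), which is known as an activator of Asns and is regulated largely through translation, fell at the level of its RNA. Its values were 77.2, 83.5 and 91.6 FPKM in naive and 63.9, 62.4 and 58.2 in activated WT libraries, without overlap (log2 fold change -0.44 with SE 0.118, limma adjusted p = 0.0145).

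Among 24 further genes listed for the integrated stress response and as Atf4 targets, 21 were tested. On activation 8 were called higher (38.1%) and 2 lower (9.5%), beside 26.2% and 25.8% of all tested genes. The median log2 fold change of these 21 was 0.36. Vldlr, a lipoprotein receptor, was called higher at 4.15, 5.002 and 0.162 FPKM in activated WT libraries, with at most 0.0102 in naive ones (log2 fold change 1.72, limma adjusted p = 0.0386). Trib3, a pseudokinase induced by Atf4, rose from 2.17 to 7.85 FPKM (log2 fold change 1.47, limma adjusted p = 0.000215), and the eIF2 kinase Eif2ak3 from 9.31 to 19.2 FPKM (0.97). Ppp1r15a, which brings a phosphatase to eIF2 and is also a target of the pathway, fell from 37.7 to 14.1 FPKM (-1.29). The sestrin Sesn2, which binds leucine, rose from 1.57 ± 0.177 to 3.59 ± 0.130 FPKM (log2 fold change 0.84, limma adjusted p = 0.000794).

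The promoters of the members were searched for the core of the composite element at which Atf4 is known to bind with C/EBP proteins. RefSeq start sites on GRCm38.p6 gave a window of 250 bases before to 50 after the start for 25 of the members. The letters TGATGNAA were found on either strand in 6 of these 25 windows (24.0%), those of Asns, Aars, Gars, Iars, Tars and Yars, and in 4.51% of 27025 windows of the same length over all genes. The E-box CACGTG, read the same on both strands, was found in Aars, Iars and Tars, or 12.0% of the windows, and in 8.09% over all genes. A match in these letters is a description and not a binding site. The 150 bases before the start of the 4 members that hold the core and were called between activated and naive WT cells or between knockout and activated WT cells are shown, so that the motif can be read beside the values; the capitals mark the match and the sequence runs 5′ to 3′ toward the start.
Asns, chr6:7693210-7693359, minus strand: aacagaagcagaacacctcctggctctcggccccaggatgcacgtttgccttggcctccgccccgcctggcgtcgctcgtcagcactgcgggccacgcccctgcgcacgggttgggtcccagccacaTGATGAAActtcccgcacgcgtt
Aars, chr8:111033692-111033841, plus strand: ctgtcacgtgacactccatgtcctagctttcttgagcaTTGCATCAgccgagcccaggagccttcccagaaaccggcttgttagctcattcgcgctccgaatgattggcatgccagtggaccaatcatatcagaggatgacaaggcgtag
Gars, chr6:55037851-55038000, plus strand: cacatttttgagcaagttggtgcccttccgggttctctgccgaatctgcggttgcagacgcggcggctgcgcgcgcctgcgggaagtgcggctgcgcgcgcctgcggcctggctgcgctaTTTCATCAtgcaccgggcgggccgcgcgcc
Tars, chr15:11399659-11399808, minus strand: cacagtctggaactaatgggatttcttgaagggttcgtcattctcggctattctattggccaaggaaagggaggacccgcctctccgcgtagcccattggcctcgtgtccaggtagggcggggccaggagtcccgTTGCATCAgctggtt
Asns holds TGATGAAA on the strand of the gene, and in Aars, Gars and Tars the match reads on the other strand, as TTGCATCA or TTTCATCA. Counted from the start, with -1 the last base before it, the match lies at -23 to -16 in Asns, -112 to -105 in Aars, -30 to -23 in Gars and -15 to -8 in Tars. The Aars window holds a further match, TTTCATCA, after the start and outside the bases shown. Of these 4 members, Asns, Aars and Gars rose on activation and Tars measured 24.2 ± 0.449 FPKM in naive and 22.5 ± 1.40 in activated WT libraries (limma adjusted p = 0.335). Of the other members with the core, Iars and Yars had log2 fold changes of -0.34 and -0.05 on activation that were not called, and Yars was called only between knockout and naive WT cells (0.40, limma adjusted p = 0.0261).

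The 18 cytosolic synthetases had 8 members called higher on activation (44.4%), none called lower and a median log2 fold change of 0.01. Over all tested genes, 26.2% were called higher and 25.8% lower. Wars (ENSMUSG00000021266, chromosome 12, minus strand, 108860030 to 108894174), the tryptophan enzyme and known as an interferon-inducible gene, was read at 22.1, 18.9 and 19.4 FPKM in naive and 57.5, 84.5 and 80.1 in activated WT libraries. Its log2 fold change of 1.81 (SE 0.155, limma adjusted p = 7.04e-05) was the highest among the synthetases, and the groups were far apart. Kars for lysine (ENSMUSG00000031948, chromosome 8, minus strand, 111993443 to 112011323) went from 43.7, 43.3 and 48.0 FPKM to 80.2, 74.5 and 73.6 (log2 fold change 0.75, SE 0.0769, limma adjusted p = 0.000163). Aars for alanine went from 16.1, 13.7 and 15.8 to 25.0, 24.5 and 25.8 FPKM (0.69, limma adjusted p = 0.000638). Gars for glycine went from 35.2, 32.1 and 35.6 to 60.8, 53.0 and 51.9 FPKM (0.67, limma adjusted p = 0.000727). The valine enzyme Vars rose from 61.1 ± 3.15 to 96.1 ± 11.2 FPKM (0.64), the serine enzyme Sars from 83.1 ± 7.33 to 110 ± 5.46 (0.40), and the glutamine enzyme Qars had a log2 fold change of 0.28. Hars for histidine rose from 26.5 ± 2.34 to 32.0 ± 2.38 FPKM (0.27, limma adjusted p = 0.0305).

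All activated libraries lay above all naive ones for these genes. Hars was not called without naive replicate 1 or 2 (limma adjusted p = 0.103 and 0.0757) or without activated WT replicate 1 or 3 (0.0927 and 0.0873). Qars missed the threshold only with quantile normalization (0.0562). With that normalization the median of the 18 synthetases was -0.04, so no direction is given for the synthetases as a group. The synthetases that did not pass included values on both sides of 0, from Cars for cysteine at a log2 fold change of -0.42 (limma adjusted p = 0.0546) to Dars for aspartate at 0.03. Eprs, Iars, Lars, Mars, Nars, Rars, Tars and Yars lay between them, at -0.34 to 0.00. For Cars, Nars and Tars every activated WT library lay below every naive one, as for 29.8% of all tested genes. With array quality weights 4 synthetases were called lower, and with only the 6 libraries compared 2 were.

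In the cell, 8 of the 18 (Dars, Eprs, Iars, Kars, Lars, Mars, Qars and Rars) are known to be held together in the multisynthetase complex, a grouping that was applied after the values were seen. Of these 8, Kars and Qars were called higher on activation (25.0%), and of the other 10 synthetases 6 were (60.0%), beside 26.2% of all tested genes. The scaffold protein Aimp1 rose from 43.4 ± 6.12 to 101 ± 2.17 FPKM (log2 fold change 1.21, limma adjusted p = 4.9e-05), while the complex member Eef1e1 fell from 24.0 to 14.9 (-0.65). Among the 9 further cytosolic synthetase and scaffold genes listed, 1 was called higher and 6 lower (11.1% and 66.7%). Over all tested genes, 26.2% were called higher and 25.8% lower.

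**Figure D2:**
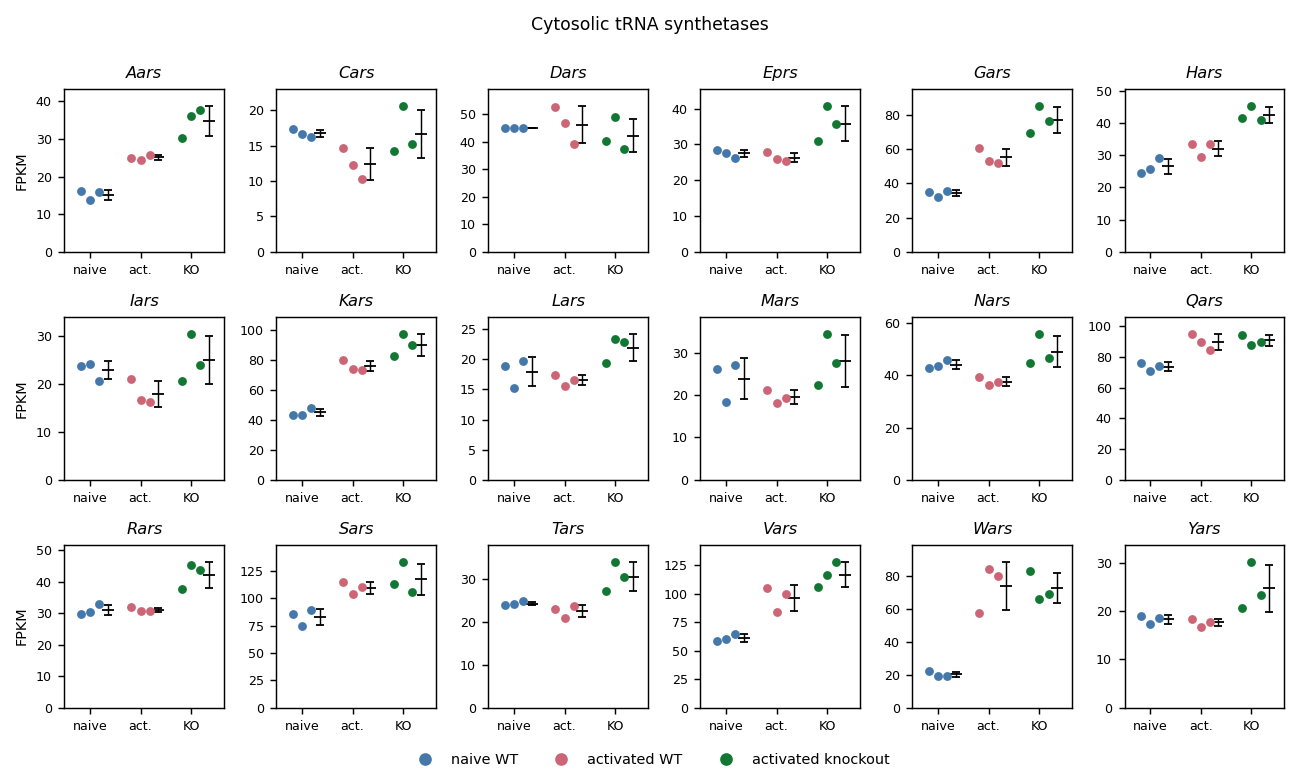
FPKM of the 18 cytosolic tRNA synthetases, with a panel per gene, a point per library and the mean ± SD of each group of 3; each vertical axis starts at 0. Wars, Kars, Aars and Gars are higher in every activated library than in every naive one, while Rars and Tars are higher in every knockout library than in every WT library.

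Mitochondria have synthetases of their own, encoded in the nucleus, and 17 of these were tested. On activation 4 were called higher (23.5%) and 7 lower (41.2%), beside 26.2% and 25.8% of all tested genes. The median log2 fold change of the 17 was -0.23. Ears2 for glutamate fell from 9.44 ± 0.467 to 1.96 ± 0.707 FPKM (log2 fold change -1.84, limma adjusted p = 7.76e-05), Aars2 from 5.79 to 2.81 (-0.84) and Mars2 from 6.70 to 3.53 (-0.77). Fars2 rose from 5.90 to 11.0 FPKM (0.80). Lars2 had the highest log2 fold change, 3.56 (limma adjusted p = 0.00209), with naive libraries at 29.3, 175 and 39.3 FPKM and activated WT libraries at 728, 773 and 620. The summed FPKM of the whole library was 3446190.1, 5731992.5 and 4865451.8 in these naive libraries. It was 12521536.8, 13114287.9 and 10295948.8 in these activated WT libraries, above all naive ones. Within both groups Lars2 and this sum gave the libraries the same order. Knockout replicates 2 and 3 did not, at 581.5 and 578.9 FPKM for Lars2 and sums of 9236103.1 and 10530017.1. The part of this sum in the Lars2 values was not tested. For 13 amino acids a member was set beside its mitochondrial counterpart. The cytosolic gene had the larger log2 fold change in 10 of the 13 pairs on activation and the higher naive level in 10 of them. In the alanine and histidine pairs 1 gene was called higher and the other lower, with log2 fold changes of 0.69 for Aars and -0.84 for Aars2, and of 0.27 for Hars and -0.54 for Hars2. Hars and Hars2 overlap on opposite strands, and without a stated strand setting their reads cannot be told apart where they overlap.

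**Figure D3:**
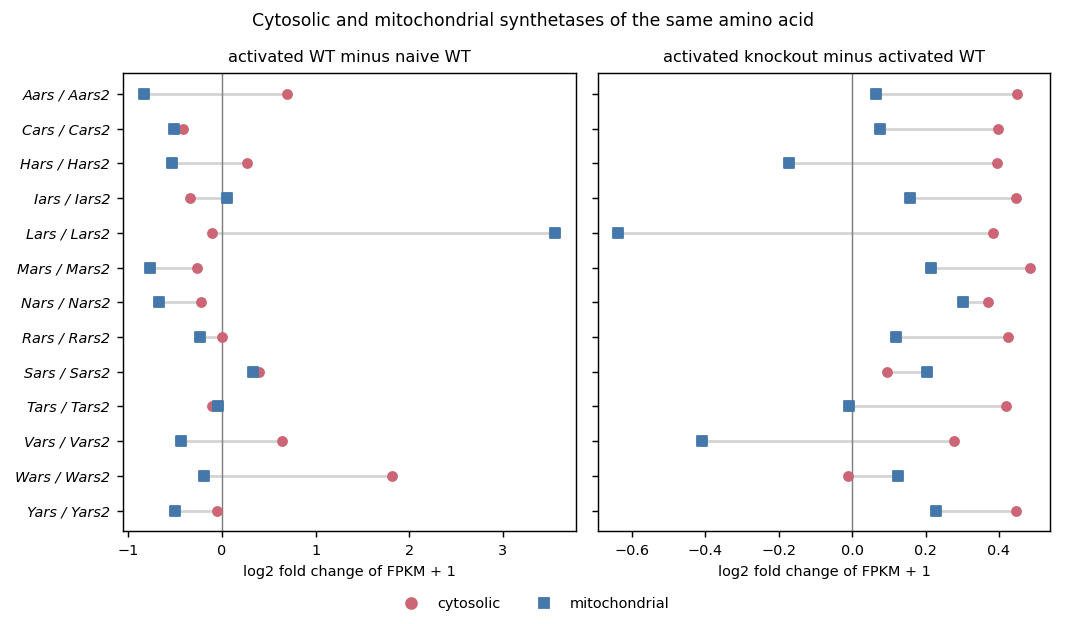
Log2 fold change of FPKM + 1 of the cytosolic (circles) and the mitochondrial (squares) synthetase of 13 amino acids, joined by a line, for activated WT minus naive WT on the left and activated knockout minus activated WT on the right. The circle lies to the right of the square in 10 of 13 pairs on the left and in 11 of 13 on the right.

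The neighbouring pathways gave further context on activation, where 26.2% of all tested genes were called higher and 25.8% lower. Of 22 tested folate and methionine cycle genes outside the members, 7 were called higher and 7 lower (31.8% each). Tyms, which makes thymidylate with a folate carbon unit, rose from 4.54 ± 0.442 to 33.5 ± 9.74 FPKM (log2 fold change 2.60, limma adjusted p = 3.73e-05) and Ahcy of the methionine cycle from 14.8 to 43.7 (1.49). Fpgs, which retains folates in the cell, fell from 10.3 to 4.37 FPKM (-1.08), the S-adenosylmethionine synthetase Mat2a from 78.6 to 44.9 (-0.76), the mitochondrial folate carrier Slc25a32 from 8.85 to 4.83 (-0.76) and the purine enzyme Gart from 33.1 ± 2.34 to 20.0 ± 1.80 (-0.70). Of 17 other amino acid transporters tested, 3 were called higher and 3 lower (17.6% each). Among them the taurine carrier Slc6a6 rose from 16.4 to 24.4 FPKM (0.55) and Slc16a10 fell from 2.45 to 0.87 (-0.89). Of 30 genes of mTORC1 and amino acid sensing, 10 were called higher and 10 lower (33.3% each). The translation repressor Eif4ebp1 rose from 4.37 to 23.4 FPKM (2.13) and the arginine sensor Castor1 from 8.62 to 19.4 (1.11), whereas Sesn1 fell from 47.7 to 30.2 (-0.64). Of 8 tested genes of amino acid catabolism and glutamine use, 6 were called higher and 2 lower (75.0% and 25.0%). Odc1, the first enzyme of polyamine synthesis, rose from 17.4 ± 2.67 to 59.7 ± 6.12 FPKM (1.73), Bcat1 from 0.568 to 3.71 (1.59) and the aspartate aminotransferase Got2 from 26.3 to 77.2 (1.52).

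Between activated knockout and activated WT cells, 9 members were called higher and none lower. Every call was thus in the direction of higher RNA in the knockout: the carrier Slc7a1, the one-carbon enzymes Phgdh, Shmt2 and Mthfd1, and the synthetases Aars, Gars, Hars, Rars and Tars. They were 26.5% of the members, where 3.30% of all tested genes were called higher and 0.840% lower. The median log2 fold change was 0.39 for the members and 0.06 for all tested genes. Values above 0 were found in 30 of 34 members and in 9152 of all 15126 tested genes. The 2 groups' libraries were fully separated for 22 members, all higher in the knockout, while this held for 22.8% (higher) and 8.36% (lower) of all tested genes. This comparison shares the activated WT libraries with the previous one, so the 2 are not independent.

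These calls were not firm. With each library left out in turn, the number of members called was 1, 4 and 6 without naive replicate 1, 2 or 3, which enter through the shared estimate of the spread. It was 3, 0 and 1 without activated WT replicate 1, 2 or 3, and 13, 0 and 0 without knockout replicate 1, 2 or 3. With median-of-ratios or quantile scaling 2 members were called, Phgdh and Mthfd1 in both cases. The knockout libraries had size factors of 1.035, 1.017 and 1.035 and the activated WT libraries of 0.971, 0.973 and 0.982, without overlap. The median of the members stayed between 0.29 and 0.47 over all alternatives, whereas that of all tested genes ran from -0.001 to 0.071.

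**Figure D4:**
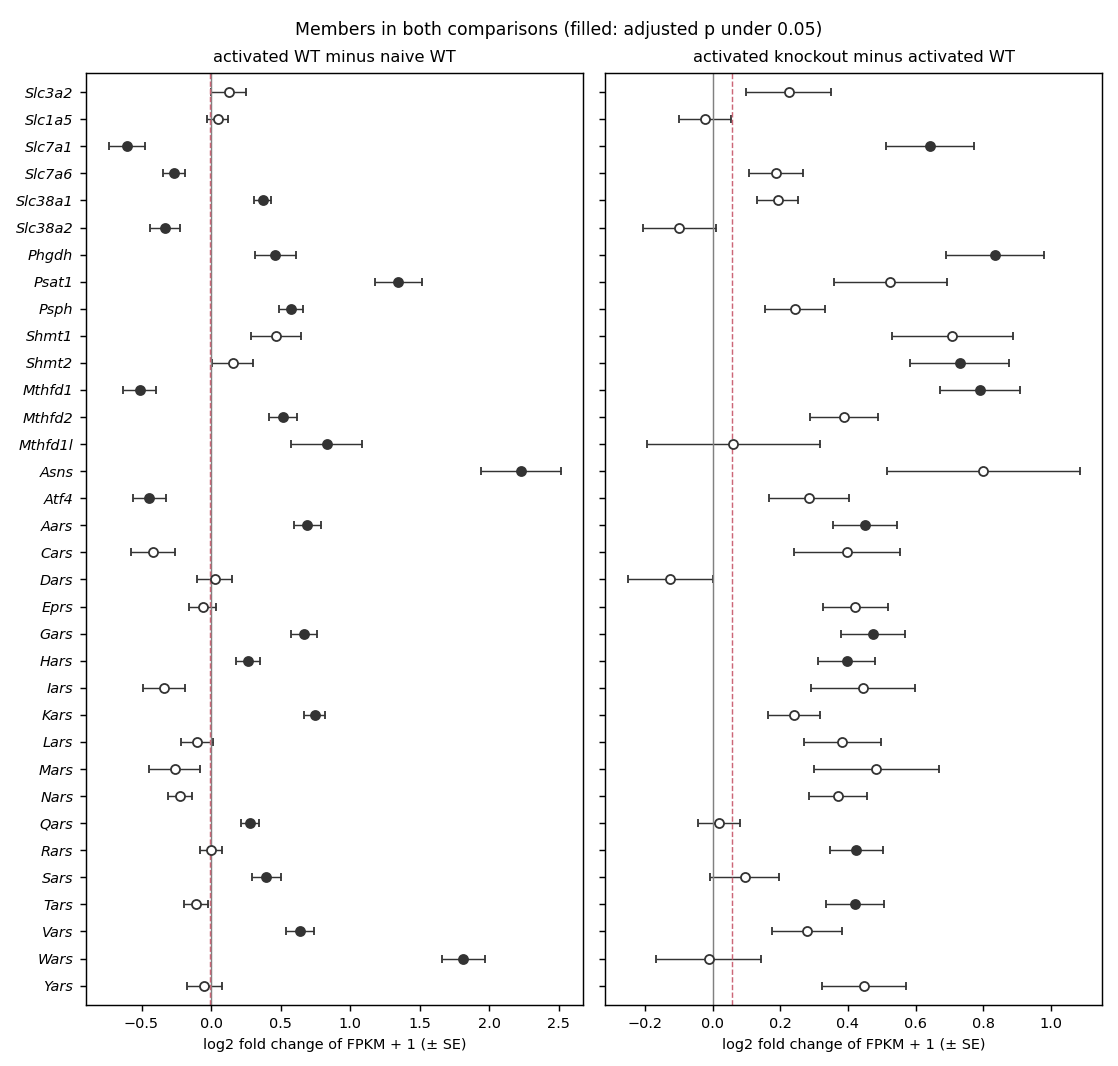
Log2 fold change of FPKM + 1 with its standard error for the 34 members, activated WT minus naive WT on the left and activated knockout minus activated WT on the right; filled circles are called (limma adjusted p under 0.05), the solid line marks 0 and the dashed line the median of all tested genes. On the right 30 of the 34 circles lie above 0, where 9152 of all 15126 tested genes do, and 9 are filled.

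Phgdh had the highest log2 fold change of the members in the knockout. It was read at 66.0, 88.7 and 90.4 FPKM in knockout libraries against 52.0, 38.5 and 45.3 in activated WT libraries (81.7 ± 13.6 and 45.2 ± 6.71; log2 fold change 0.83, SE 0.146, limma adjusted p = 0.0305). Mthfd1, lower in activated than in naive WT cells, was read at 16.0, 22.0 and 21.4 FPKM in the knockout against 11.1, 10.0 and 11.6 (log2 fold change 0.79, SE 0.119, limma adjusted p = 0.0232). Shmt2 (ENSMUSG00000025403, chromosome 10, minus strand, 127517123 to 127522444) was read at 39.1, 59.6 and 49.8 FPKM against 31.9, 25.9 and 29.5 (log2 fold change 0.73, SE 0.148, limma adjusted p = 0.0411). For these 3 genes every knockout library lay above every activated WT library. Without activated WT replicate 2 or knockout replicate 2 or 3 the adjusted p was 0.114, 0.104 and 0.123 for Phgdh, 0.095, 0.0772 and 0.0938 for Mthfd1, and 0.155, 0.107 and 0.149 for Shmt2.

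All 8 serine and one-carbon enzymes had a log2 fold change above 0 in the knockout, as did 9152 of all 15126 tested genes. The median of the 8 enzymes was 0.62, and the libraries did not overlap for 6 of them. Over all tested genes, 22.8% were fully separated and higher in the knockout. Shmt1 was at 10.3, 17.0 and 17.0 FPKM in the knockout and 7.84, 9.63 and 7.94 in activated WT libraries (log2 fold change 0.71, limma adjusted p = 0.068), and Mthfd2 at 44.0, 56.6 and 48.0 against 40.8, 35.7 and 36.0 (0.39, limma adjusted p = 0.0697). Neither was called, although the groups did not overlap. Psat1 measured 47.4 ± 8.98 against 32.7 ± 6.57 FPKM (limma adjusted p = 0.109) and overlapped between the groups. Mthfd1l measured 30.5 ± 6.43 and 30.1 ± 9.95 FPKM (log2 fold change 0.06, SE 0.256, limma adjusted p = 0.925). Asns was at 5.96, 14.5 and 7.37 FPKM in the knockout against 6.05, 3.92 and 3.92 (log2 fold change 0.80, SE 0.285, limma adjusted p = 0.136), with a wide spread and overlapping groups.

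Slc7a1 was read at 10.2, 14.4 and 11.4 FPKM in the knockout against 7.74, 6.72 and 7.33 in activated WT libraries (log2 fold change 0.64, SE 0.130, limma adjusted p = 0.0411). Its mean was 12.0 ± 2.19 FPKM there and 11.6 ± 1.23 in naive libraries. None of the other 5 transporters was called. Slc38a1 was at 32.3, 32.6 and 32.2 FPKM in the knockout, above all activated WT libraries (log2 fold change 0.19, limma adjusted p = 0.107), and Slc7a6 was at 11.9, 12.6 and 12.2 FPKM, also above them (0.19, limma adjusted p = 0.191). Slc3a2 measured 39.3 ± 6.88 FPKM with a log2 fold change of 0.22, and Slc38a2 and Slc1a5 had values of -0.10 and -0.02. Atf4 was at 68.8, 90.3 and 68.1 FPKM in the knockout, above the activated WT libraries, but was not called (0.29, limma adjusted p = 0.182).

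Of the 18 synthetases, 5 were called higher in the knockout (27.8%), beside 3.30% of all tested genes. The median log2 fold change of the 18 was 0.40. Values above 0 were found for 16 synthetases, beside 9152 of all 15126 tested genes. Gars was read at 69.8, 85.2 and 76.6 FPKM against 60.8, 53.0 and 51.9 (log2 fold change 0.47, SE 0.0942, limma adjusted p = 0.0411). Aars was read at 30.4, 36.2 and 37.8 FPKM against 25.0, 24.5 and 25.8 (0.45, limma adjusted p = 0.0449). Rars for arginine (ENSMUSG00000018848, chromosome 11, minus strand, 35808381 to 35834506) was read at 37.6, 45.2 and 43.7 FPKM against 31.9, 30.6 and 30.7 (0.43, limma adjusted p = 0.0351), whereas on activation its log2 fold change had been 0.00. Tars for threonine was read at 27.1, 33.9 and 30.5 FPKM against 22.8, 20.9 and 23.6 (0.42, limma adjusted p = 0.0424). Hars was read at 41.4, 45.2 and 40.8 FPKM against 33.3, 29.3 and 33.5 (0.40, limma adjusted p = 0.0476). The groups did not overlap for these 5 genes, nor for 7 others that were not called, Eprs, Kars, Lars, Mars, Nars, Vars and Yars. Over all tested genes, 22.8% were fully separated and higher in the knockout. Eprs, the joint enzyme for glutamate and proline, was at 30.9, 40.7 and 35.7 FPKM against 27.8, 25.9 and 25.3 (0.42, limma adjusted p = 0.0532). The asparagine enzyme Nars was at 44.8, 55.8 and 46.8 FPKM against 39.4, 36.2 and 37.3 (0.37, limma adjusted p = 0.0546). Mars for methionine, Yars for tyrosine and Lars for leucine had log2 fold changes of 0.48, 0.45 and 0.38 that did not pass the test. Iars for isoleucine and Cars, at 0.45 and 0.40, did not pass either, and their groups overlapped.

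Without activated WT replicate 2 or knockout replicate 2 or 3, the adjusted p of the 5 called synthetases and of Slc7a1 lay between 0.104 and 0.166. Wars and Kars, the synthetases with the highest log2 fold changes on activation, were not called in this comparison. Wars measured 72.8 ± 9.04 FPKM in the knockout and 74.0 ± 14.5 in activated WT libraries (log2 fold change -0.01, SE 0.155, limma adjusted p = 0.984), and Kars 90.2 ± 7.30 and 76.1 ± 3.56 (0.24, limma adjusted p = 0.110). Dars, at a log2 fold change of -0.13 (limma adjusted p = 0.587), was the lowest of the members. Vars, Sars and Qars had log2 fold changes of 0.28, 0.09 and 0.02, none of them called. None of the 17 mitochondrial synthetases was called in the knockout, where 3.30% of all tested genes were called higher and 0.840% lower. In 11 of the 13 pairs the cytosolic gene had the larger log2 fold change.

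The order of the knockout libraries was shared by most members. Knockout replicate 2 was the highest of the 3 in 27 of 34 members (79.4%, against 31.1% of all tested genes), and knockout replicate 1 the lowest in 25 (73.5%, against 38.4%). Among the activated WT libraries, replicate 1 was the highest in 23 members (67.6%, against 33.7%). Summed over the members, the unscaled FPKM of the libraries ran from 1044 to 1093 in naive and from 1251 to 1349 in activated WT cells. In knockout cells the sums ran from 1444 to 1731, so the 3 groups were apart on this scale. Every knockout size factor lay above every activated WT one, and scaled sums were not computed. The summed synthetases ran from 602.5 to 652.8, from 783.2 to 838.5 and from 898.8 to 1031 FPKM, and the summed serine and one-carbon enzymes from 142.4 to 154.3, from 195.4 to 241.1 and from 265 to 363.1. Of 5 activation and sort markers, 1 was called higher and 1 lower in the knockout, and their summed FPKM ran from 646.9 to 702.5 in activated WT and from 499.7 to 626.9 in knockout libraries. The higher one, Foxp3, the gene of the reporter by which regulatory T cells were left out, was at 5.89, 2.21 and 4.31 FPKM in the knockout and at 1.02, 0.989 and 0.867 in activated WT libraries (log2 fold change 1.32, limma adjusted p = 0.035), and the part of these markers in the members' results was not tested.

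In the other lists the share called higher in the knockout ran from 0 of 30 genes to 4 of 8, beside the 3.30% of all tested genes. Odc1 rose from 59.7 ± 6.12 to 143 ± 21.1 FPKM (log2 fold change 1.24, limma adjusted p = 0.0107), Bcat1 from 3.71 to 11.0 ± 5.54 (1.26, limma adjusted p = 0.0466) and Got2 from 77.2 to 97.8 (limma adjusted p = 0.0483), and 4 of 8 genes of catabolism and glutamine use were called higher. Of the 22 folate and methionine cycle genes, 2 were called higher (9.1%) and 1 lower. Tyms rose from 33.5 ± 9.74 to 61.9 ± 7.65 FPKM (limma adjusted p = 0.0483) and Gart from 20.0 ± 1.80 to 31.2 ± 4.26 (limma adjusted p = 0.0357), while Mtfmt, which formylates the mitochondrial initiator tRNA, fell from 11.3 to 7.83 (limma adjusted p = 0.0393). Of the 21 stress response genes, 2 were called higher (9.5%). Sesn2 rose from 3.59 ± 0.130 to 6.95 ± 1.30 FPKM (0.78, limma adjusted p = 0.0253) and Eif2s1, a subunit of eIF2, from 25.4 to 34.2 (0.41, limma adjusted p = 0.0449). Farsb, a subunit of the phenylalanine enzyme and 1 of 9 further cytosolic synthetase genes (11.1%), rose from 20.3 to 25.9 FPKM (limma adjusted p = 0.0495). No gene of mTORC1 sensing and none of the other amino acid transporters was called.

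Between activated knockout and naive WT cells, in which genotype and activation differ together, 22 members were called higher and 1 lower, where 31.8% of all tested genes were called higher and 25.1% lower. The median log2 fold change of the members was 0.41 and that of all tested genes 0.04. Asns had the highest value, 3.03 (limma adjusted p = 8.52e-05), followed by Psat1 at 1.87, Wars at 1.80 and Phgdh at 1.30. Of the serine and one-carbon enzymes 7 of 8 were called higher, Mthfd1 being the exception at 0.28, and of the synthetases 12 of 18. Slc38a2 was the member called lower, at -0.43. Slc7a1 and Atf4, both lower in activated than in naive WT cells, had log2 fold changes of 0.04 and -0.16 here and were not called.

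For 9 members an exon overlaps an exon of a gene on the opposite strand: Psph, Shmt1, Shmt2, Mthfd1, Aars, Cars, Hars, Mars and Yars. Reads of such partners cannot be told apart because no strand setting is given, and Aars also shares exonic bases with Exosc6 on its own strand. Phgdh and Kars have a named pseudogene each, Phgdh-ps1 and Kars-ps1, to which reads may have been divided.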

How the data were processed

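RNA-seq libraries of sorted CD4+ T cells, 3 in each of 3 groups taken from the sample titles, were analysed as FPKM values that the authors deposited in 1 table. Per the submitters' processing notes, TopHat2, Cufflinks and Cuffdiff were used with GRCm38; the sources used here give no versions, gene annotation or strand setting. The FPKM are fractional estimates with values far below 1 read, so the depth is unknown and no counting interval was computed. The 34 members were matched by Ensembl identifier, with positions and overlaps from GENCODE M21 and promoters from RefSeq on GRCm38.p6.

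Genes averaging 0.5 FPKM or more across the 9 libraries were tested on log2(FPKM + 1), a scale that understates changes of low genes, with limma 3.58.1 in R 4.3.3 (empirical Bayes with an intensity trend, 1 fit of all 9 libraries, two-sided, Benjamini-Hochberg over 15126 genes). The calculation was tested on simulated data with planted log2 fold changes of 1 and 2, in either direction, between activated and naive WT libraries. Smaller changes, such as those of the members called in the knockout, were not simulated. An exact permutation test of 3 against 3 libraries cannot go below p = 0.1 and was not used for calls. Besides the members, genes of the neighbouring lists were named from the up to 3 called in each direction with the largest log2 fold change in either of the first 2 comparisons, if the groups' libraries did not overlap and the higher mean reached 2 FPKM; a gene named for one comparison may be given in both. The members, the lists and this rule were chosen with earlier results of these data known. The 19 alternatives covered pseudocount, filter, scaling, spread model, library weights, replicate block, libraries in the fit and each library left out. Some genes of the neighbouring and marker lists are not reported here.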

Additional observations from a re-analysis of the deposited data

How the results depend on the processing

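Over 19 alternatives, the number of members called between activated and naive WT cells stayed within 1.5 times the reported 20, at 15 to 22 with a library left out, and 14 of the 20 were called under all 19 (Slc7a1, Slc38a1, Psat1, Psph, Mthfd1, Mthfd2, Asns, Atf4, Aars, Gars, Kars, Sars, Vars and Wars). For knockout against naive WT cells, 17 of 23 were. The 9 calls between knockout and activated WT cells became 3 without a filter on low values, 2 with median-of-ratios scaling, 2 with quantile normalization, 4 without the intensity trend, 24 with array quality weights, 0 with only the 6 libraries compared and between 0 and 13 with a library left out. None of the 9 was called under all alternatives. Over all tested genes the calls of this comparison numbered 626, and 64 to 1040 with a library left out, 324 with quantile normalization and 3851 with weights; the cause was not tested.

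With the replicate number as a block, 0 members were called between knockout and activated WT cells, and 58 of all tested genes. Deviations of same-numbered libraries correlated at 0.003 to 0.054, and those of differently numbered libraries at -0.068 to 0.038. Of the 9 libraries, 4 correlated best with their own number in both other groups. The labels do not tie the number to a mouse, batch or day, and a shared origin was not tested. No member that was called changed direction under an alternative. The unknown depth limits statements on low genes such as Asns in naive cells.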
